A study of Mus musculus with 12 samples.

Results

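The large subunit of the cytosolic ribosome was followed through the genes of its proteins, taken as every symbol of the count table made of Rpl and a number, with or without a closing a, l or x, together with Rplp0, Rplp1 and Rplp2, and without pseudogenes. The rule found 50 of the 26214 symbols. The cells were mLTC-1, a single immortalized line of murine Leydig origin and not testis tissue. PolyA RNA was taken after 24 h with DMSO (control, 6 libraries) or with 100 µM of the compound MSNBA (6 libraries). The series names MSNBA as blocking Glut5, which carries fructose into cells. The only comparison is of exposed with vehicle-treated cells. In the deposited table the columns stand in 3 runs of 4, the first of controls, the last of MSNBA, and the middle run of controls 2 and 4 and MSNBA 3 and 5. Groups follow the titles, which give 2 conditions, and what the order stands for is not known. The counts and values that lead the results are therefore also given without these 4 libraries, an alternative chosen after seeing the data.

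As background, the large subunit joins amino acids at its peptidyl transferase centre and passes the growing chain through an exit tunnel, while its flexible stalk recruits the translation factors that use GTP. Its proteins are made in near-equal numbers and assembled with ribosomal RNA in the nucleolus. Their messages typically begin with a C followed by a run of C and T bases, the 5′ terminal oligopyrimidine (TOP) tract, through which mTORC1 and LARP1 control their translation. Leydig cells rely on this machinery for the enzymes of androgen synthesis.

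The start regions are shown because such a tract is what these messages are known to share and because the rule did not use it. RefSeq start windows (assembly GRCm38.p6, the same assembly as mm10, 250 bases before to 50 after each annotated start) were matched for 38 of the 50 members, 34 of them among the tested genes. A single window was used per gene, the first listed. Its start need not be the outermost annotated base of the gene, and for Rpl18, Rpl38 and Rpl7a it lies inside the gene. Within 50 bases of the start, on the gene's strand, a C followed by 7 bases that are each C or T was present in 32 of 38 windows (84.2%), against 28.7% of 27025 windows of all genes and 78.3% of 23 windows of small subunit genes. The longest run of C and T had a median of 10.5 bases in the members and 7 in all genes. The sites below are 30 bases long and run 5′ to 3′, with the longest run of C and T in capitals. Annotated starts can lie away from the base where transcription begins, so the place of a run is given by position only.
Rpl5: gcctacagccaCTCTTTCTCacgtcgcttg
Rpl11: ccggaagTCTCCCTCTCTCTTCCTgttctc
Rplp0: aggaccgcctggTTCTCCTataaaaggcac
Rplp2: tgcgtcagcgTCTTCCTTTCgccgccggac
Rpl38: ggaagcctcgTTCTTTCCCCgttctcttcg
Rpl14: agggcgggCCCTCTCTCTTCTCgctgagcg
Rpl13a: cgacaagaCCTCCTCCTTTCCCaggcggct
Rpl7a: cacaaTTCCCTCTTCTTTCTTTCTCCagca
Rpl18: tcgcaggccgCTCTTTCCCCgcccactccg
Rpl10l: tcagtctctatgaTTCCCgcaaggcttgat
These sites lie at chr5:107900497-107900526 (plus strand) for Rpl5, chr4:136053358-136053387 (minus) for Rpl11, chr5:115559466-115559495 (plus) for Rplp0, chr7:141447636-141447665 (plus) for Rplp2, chr11:114668568-114668597 (plus) for Rpl38, chr9:120571501-120571530 (plus) for Rpl14, chr7:45128722-45128751 (minus) for Rpl13a, chr2:26910788-26910817 (plus) for Rpl7a, chr7:45718062-45718091 (plus) for Rpl18 and chr12:66284429-66284458 (minus) for Rpl10l. Rpl7a is shown for the longest run of the 38, at 21 bases, and Rplp0 as a tested member without the C-led run of 8. The others belong to genes described below. Rpl10l, an intronless paralogue of Rpl10 known from the testis, has a longest run of 5 bases. The letters CCGGAAG, on either strand of the whole window, were present in 14 of 38 members (36.8%) and 9.12% of all genes. On the reverse strand these letters read CTTCCGG and can overlap a run of C and T. TATAAA in the 50 bases before the start was in 0 of 38 members and 2.88% of all genes. The Rplp0 site above holds these letters, but after its annotated start, so they were not counted. Among tested members the median log2 fold change was 0.16 in the 29 with the C-led run of 8 and 0.19 in the 5 without it.

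Depth was low: totals ran from 59113 to 234225 counts in controls and from 94179 to 657251 in MSNBA, with a ratio of geometric means, MSNBA over control, of 2.14. A filter on low counts left 2614 genes to test, 46 of them members. Each of these 46 had at least 10 counts in every library, so that none entered through 1 group alone. Leydig markers were present, with Star, Cyp11a1, Cyp17a1, Hsd3b1, Insl3, Lhcgr and Nr5a1 counted in all 12 libraries. Summed markers of other testis cells were low in both groups, at 0 to 35.7 CPM (counts scaled to a common library total) in controls and 0 to 13.3 in MSNBA for macrophages, 0 to 50.8 and 0 to 11.6 for endothelium, 29.9 to 67.7 and 22.0 to 79.7 for Sertoli cells, 0 to 33.8 and 6.64 to 21.2 for germ cells and 13.0 to 59.5 and 10.7 to 63.7 for fibroblasts. Nothing in the labels states that replicates came from separate cultures. The p-values therefore measure only the spread between these libraries, which may be technical.

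Large subunit genes made up 7.37 ± 0.326% of all counts in controls and 8.04 ± 0.441% in MSNBA (SD, n = 6 per group), 1.09 times as much. Controls 1 to 6 stood at 7.32, 7.73, 7.40, 7.12, 7.74 and 6.93%. MSNBA 1 to 6 stood at 7.24, 8.28, 8.33, 7.85, 8.10 and 8.42%. Of the MSNBA libraries, 5 of 6 lay above every control, and MSNBA 1, the deepest library of the series, lay among the controls. Its exact 95% binomial interval (Clopper-Pearson) was 7.17 to 7.30%, and that of the shallowest library, control 5, was 7.52 to 7.96%, which cover counting error only. Without MSNBA 1 the ratio of group means was 1.11, and without the 4 libraries of the middle columns it was 1.08. A share is relative to all other RNA counted, and in bulk RNA fewer cells making a transcript and less of it per cell cannot be told apart. Small subunit genes held 4.81 ± 0.120% and 5.24 ± 0.310%, with 4 of 6 MSNBA libraries above all controls and MSNBA 1 at 4.80% and MSNBA 4 at 4.94% among them. The ratio of large to small subunit counts was 1.53 ± 0.0665 in controls and 1.53 ± 0.0536 in MSNBA, with 0 MSNBA libraries above the control range.

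**Figure D1:**
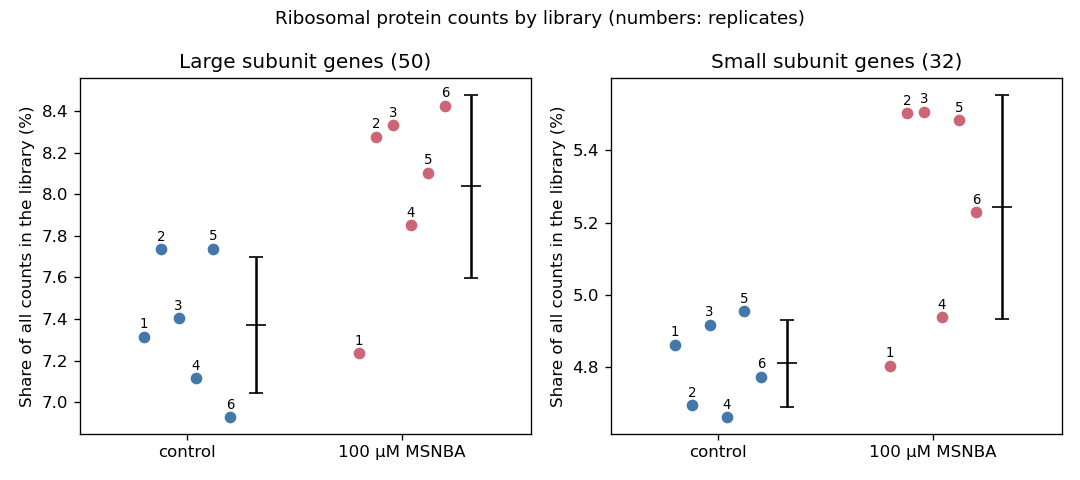
Share of all counts (%) held by the 50 large subunit genes (left) and the 32 small subunit genes (right) in each library, with replicate numbers; bars are the mean ± SD of 6 libraries and the vertical axes do not start at 0. In the left panel 5 of 6 MSNBA libraries lie above all controls and MSNBA 1, at 7.24%, lies among them.

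By edgeR's quasi-likelihood test, 0 of 46 tested members passed an adjusted p of 0.05 in either direction (background over all 2614 tested genes: 0.0765% called, 2 genes, both lower). Counted at p under 0.05 before adjustment, 9 members (19.6%) were higher and 0 lower, where the background was 4.17% higher and 4.78% lower. Values above 0 were found for 40 of 46 members, against 48.5% of all tested genes. The median log2 fold change of the 46 was 0.15, with the middle members from 0.073 to 0.19, against -0.0082 over all tested genes. No member had groups that did not overlap (background 0.23% higher and 0.421% lower), and 15 of 46 had at least 3 MSNBA libraries above every control (background 8.68%). A typical member's standard error was 0.11 on the log2 scale, against a median of 0.22 over all tested genes. The background genes are thus measured less precisely, and at a given fold change they reach a small p less readily. The members are also counted in the same libraries, so their values are not separate observations and the counts above are a description. DESeq2 and limma-voom also called 0 members, with 15 and 9 higher at an unadjusted p under 0.05, against 3.98% and 4.09% of the same 2614 genes. With log2 depth in the model the median was 0.20 and 15 members were higher at that level (background 4.59%). Without control 6 alone the count was 5 (background 4.21%). Without the low-count filter the median was 0.30 and the count 27, but the median of the 2614 genes was then 0.14 and 13.2% of them were higher at that level. Without the 4 libraries of the middle columns the count was 4 (background 4.28%), 0 members were called and the median was 0.14.

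**Figure D2:**
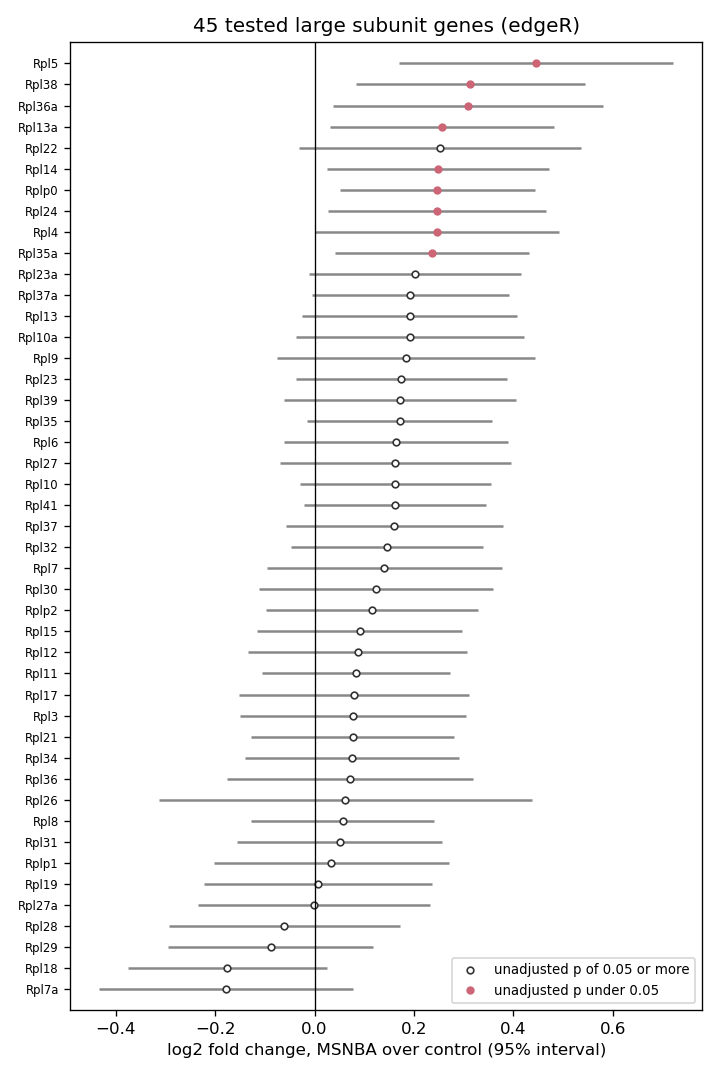
Log2 fold change of MSNBA over control with its 95% interval (edgeR) for 45 of the 46 tested large subunit genes, sorted; filled points have an unadjusted p under 0.05. The values run from -0.18 for Rpl7a to 0.45 for Rpl5, 40 lie above 0, and no adjusted p passes 0.05.

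Rpl5 and Rpl11, the genes of the 5S particle, both had values above 0. Their proteins carry the 5S ribosomal RNA into the subunit as one particle, and outside the ribosome both bind Mdm2, the ligase that keeps p53 low. Rpl5 (chromosome 5, 107900508 to 107909005, mm10) measured from 530.2 to 1074 CPM in controls (median 797) and from 943 to 1364 CPM in MSNBA (median 1029). CPM of single genes here and below are normalized, over the counts of tested genes with TMM factors. The MSNBA libraries began where the upper controls lay, and only 2 of 6 lay above all controls. Controls 3 and 5 were lowest, at 530.2 and 563 CPM (34 and 26 counts). Its means were 784 ± 212 against 1084 ± 161 CPM (SD, n = 6 per group), and the log2 fold change was 0.45 with SE 0.14 (edgeR, adjusted p = 0.227, unadjusted p = 0.00217). Its 95% interval was from 1.13-fold to 1.65-fold. It was the highest value of the 46 and missed the threshold by edgeR. Without the low-count filter it was 0.59 and passed (adjusted p = 0.0474), with the median of all genes moved up as given above. Over every setting run, its log2 value lay between 0.36 (without control 3) and 0.69 (without the 4 libraries of the middle columns, adjusted p = 0.0542 by edgeR). Rpl11 (chromosome 4, 136049354 to 136053393) measured from 2932 to 3822 CPM in controls (median 3239) and from 2994 to 3659 CPM in MSNBA (median 3596). All 6 MSNBA libraries lay within the control range, and its log2 fold change was 0.084 with SE 0.094 (edgeR, adjusted p = 0.831, unadjusted p = 0.377), with an interval from 0.929-fold to 1.21-fold. Whether the pair differ from each other was not tested.

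Stalk genes lay above 0 in 4 of 4 cases, with 1 at an unadjusted p under 0.05. Over all 46 tested members 40 lay above 0 and 9 were higher at that level, against 48.5% and 4.17% of all tested genes. Rplp0 encodes the protein that anchors the stalk on the ribosomal RNA, and Rplp1 and Rplp2 the acidic proteins that hang from it and contact elongation factors. Rplp0 measured from 2068 to 2614 CPM in controls (median 2541) and from 2507 to 3119 CPM in MSNBA (median 2968). MSNBA 2, 3, 5 and 6 lay above all controls, and MSNBA 1 and 4 lay within the control range. Its means were 2423 ± 228 against 2871 ± 267 CPM, with a log2 fold change of 0.25 with SE 0.10 (edgeR, adjusted p = 0.389, unadjusted p = 0.015). Rplp1 measured from 1770.2 to 2869.5 CPM in controls (median 2582) and from 1951 to 3035 CPM in MSNBA (median 2540.4), so that the groups overlapped over nearly their whole spread. Its log2 fold change was 0.034 with SE 0.12 (edgeR, adjusted p = 0.96, unadjusted p = 0.774), with an interval from 0.869-fold to 1.21-fold, and its sign turned with log2 depth in the model (-0.025) and without control 2 (-0.041), MSNBA 2 or MSNBA 3. Without the 4 libraries of the middle columns it was -0.19. Rplp2 measured from 2726 to 3946 CPM in controls (median 3076) and from 2546 to 4063 CPM in MSNBA (median 3591), with MSNBA 1 below and MSNBA 6 above every control. Its log2 fold change was 0.12 with SE 0.11 (edgeR, adjusted p = 0.775, unadjusted p = 0.278). Rpl12, whose protein sits at the foot of the stalk, measured from 1179 to 1528 CPM in controls (median 1279) and from 1170.5 to 1561 CPM in MSNBA (median 1459), with a log2 fold change of 0.087 with SE 0.11 (edgeR, adjusted p = 0.854, unadjusted p = 0.429).

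**Figure D3:**
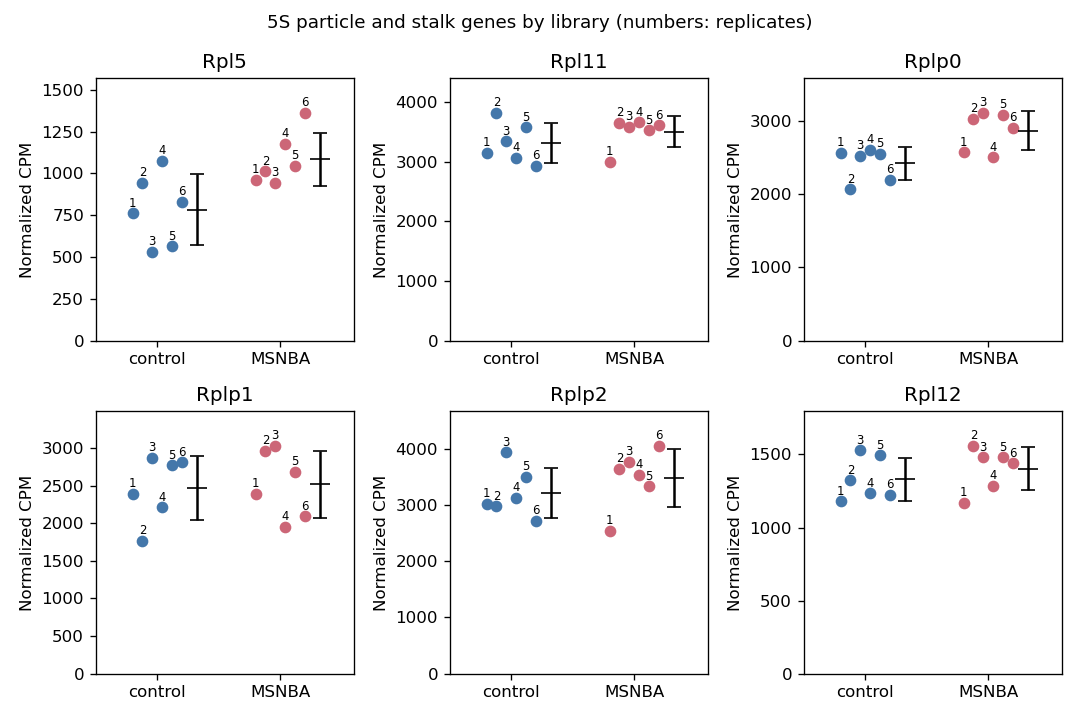
Normalized CPM per library of the 5S particle genes Rpl5 and Rpl11 and the stalk genes Rplp0, Rplp1, Rplp2 and Rpl12, with replicate numbers, from an axis at 0; bars are the mean ± SD of 6 libraries. Groups overlap in every panel, and Rplp0 has 4 MSNBA libraries above all controls.

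Rpl10 encodes a protein that joins late in the cytoplasm and reaches toward the P-site transfer RNA. It measured from 2277 to 2846 CPM in controls (median 2585) and from 2605 to 3116 CPM in MSNBA (median 2828), with 3 of 6 MSNBA libraries above all controls and a log2 fold change of 0.16 with SE 0.10 (edgeR, adjusted p = 0.603, unadjusted p = 0.0948). Rpl3, whose protein extends to the peptidyl transferase centre, measured from 841 to 976 CPM in controls (median 892) and from 799.6 to 1081 CPM in MSNBA (median 937). Its log2 fold change was 0.077 with SE 0.11 (edgeR, adjusted p = 0.881, unadjusted p = 0.499), with an interval from 0.901-fold to 1.24-fold.

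Of the 11 genes whose proteins line the exit tunnel or ring its mouth (Rpl4, Rpl17, Rpl19, Rpl22, Rpl23a, Rpl26, Rpl31, Rpl35, Rpl37, Rpl38 and Rpl39), 11 had values above 0 and 2 were at an unadjusted p under 0.05. Their median log2 fold change was 0.17, from 0.0064 for Rpl19 to 0.31 for Rpl38. These 2 are 18.2% of the 11, near the 19.6% of all 46 tested members higher at that level (background 4.17%). Above 0 lay 87.0% of the 46 and 48.5% of all tested genes. Rpl38, the gene mutated in the Tail-short mouse, measured from 1191 to 1582 CPM in controls (median 1446) and from 1464 to 2236 CPM in MSNBA (median 1674). MSNBA 2 and 6, at 2236 and 2125 CPM, stood well above the rest, and MSNBA 1, 4 and 5 lay within the control range. The log2 fold change was 0.31 with SE 0.11 (edgeR, adjusted p = 0.337, unadjusted p = 0.00864), with 3 of 6 MSNBA libraries above all controls. Rpl4, whose long loop lines the tunnel, measured from 624 to 722 CPM in controls (median 661) and from 705 to 957 CPM in MSNBA (median 782), with 4 of 6 MSNBA libraries above all controls. Its log2 fold change was 0.25 with SE 0.12 (edgeR, adjusted p = 0.545, unadjusted p = 0.0485). For Rpl22, known for its role in T cell development, the value was 0.25 (SE 0.14), with a wide spread in controls (coefficient of variation 26%). Rpl26 was the lowest of the tested members in counts, with 212 ± 28.1 CPM in controls, and its interval, from 0.804-fold to 1.35-fold, was the widest of the group.

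The other 27 tested members had a median log2 fold change of 0.15, with 21 above 0 and 6 below (background 48.5% above 0). At an unadjusted p under 0.05 there were 5 (18.5%), all higher (background 4.17%). Rpl35a, which is mutated in some families with Diamond-Blackfan anaemia, measured from 1668 to 1936 CPM in controls (median 1773) and from 1906 to 2265 CPM in MSNBA (median 2114). Of the MSNBA libraries only MSNBA 1, at 1906 CPM, lay below the highest control, control 2 at 1936 CPM. Its means were 1779 ± 106 against 2101 ± 126 CPM, and its log2 fold change was 0.24 with SE 0.10 (edgeR, adjusted p = 0.401, unadjusted p = 0.0185). Rpl14 measured from 737 to 994 CPM in controls (median 933) and from 976 to 1181 CPM in MSNBA (median 1099.8), with 5 of 6 MSNBA libraries above all controls and a log2 fold change of 0.25 with SE 0.11 (edgeR, adjusted p = 0.464, unadjusted p = 0.0297). Rpl13a, whose protein also acts outside the ribosome in silencing inflammatory messages, measured from 1279 to 1842 CPM in controls (median 1771) and from 1611 to 2148 CPM in MSNBA (median 2048). Controls 3 and 6 were lowest, near 1279 and 1303 CPM, and the log2 fold change was 0.26 with SE 0.11 (edgeR, adjusted p = 0.446, unadjusted p = 0.0264). Rpl36a, an X-linked gene, measured from 452 to 628 CPM in controls (median 504) and from 547 to 737 CPM in MSNBA (median 660.3), with a log2 fold change of 0.31 with SE 0.13 (edgeR, adjusted p = 0.446, unadjusted p = 0.0265). For both of these genes 4 of 6 MSNBA libraries lay above all controls. Rpl24, the gene altered in the Belly spot and tail mouse, measured from 1142 to 1466 CPM in controls (median 1270.3) and from 1304 to 1812 CPM in MSNBA (median 1491), with 3 of 6 above all controls and a log2 fold change of 0.25 with SE 0.11 (edgeR, adjusted p = 0.459, unadjusted p = 0.0284). Rpl37a measured from 2229 to 3057 CPM in controls (median 2439.9) and from 2506 to 3299 CPM in MSNBA (median 2889.6) and had a log2 fold change of 0.19 with SE 0.10 (edgeR, adjusted p = 0.566, unadjusted p = 0.0573).

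Rpl18, Rpl7a and Rpl29 were among the members lower in MSNBA, none of which was at an unadjusted p under 0.05. Rpl18 measured from 1748 to 2215 CPM in controls (median 1967) and from 1586 to 1915 CPM in MSNBA (median 1826). MSNBA 1 and 4 lay below every control, and the log2 fold change was -0.18 with SE 0.10 (edgeR, adjusted p = 0.589, unadjusted p = 0.0846). Rpl7a measured from 814 to 1395 CPM in controls (median 1025) and from 816 to 1057 CPM in MSNBA (median 886), with control 4 highest, and the log2 fold change was -0.18 with SE 0.13 (edgeR, adjusted p = 0.681, unadjusted p = 0.166). It turned to 0.029 with log2 depth in the model and was -0.074 without control 4 and -0.057 without the 4 libraries of the middle columns. Rpl29 measured from 1603 to 2333 CPM in controls (median 1857) and from 1715 to 1999.8 CPM in MSNBA (median 1752), all MSNBA libraries lay within the control range, and the log2 fold change was -0.088 with SE 0.10 (edgeR, adjusted p = 0.841, unadjusted p = 0.394). It turned to 0.063 without the low-count filter and was -0.026 without control 2.

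**Figure D4:**
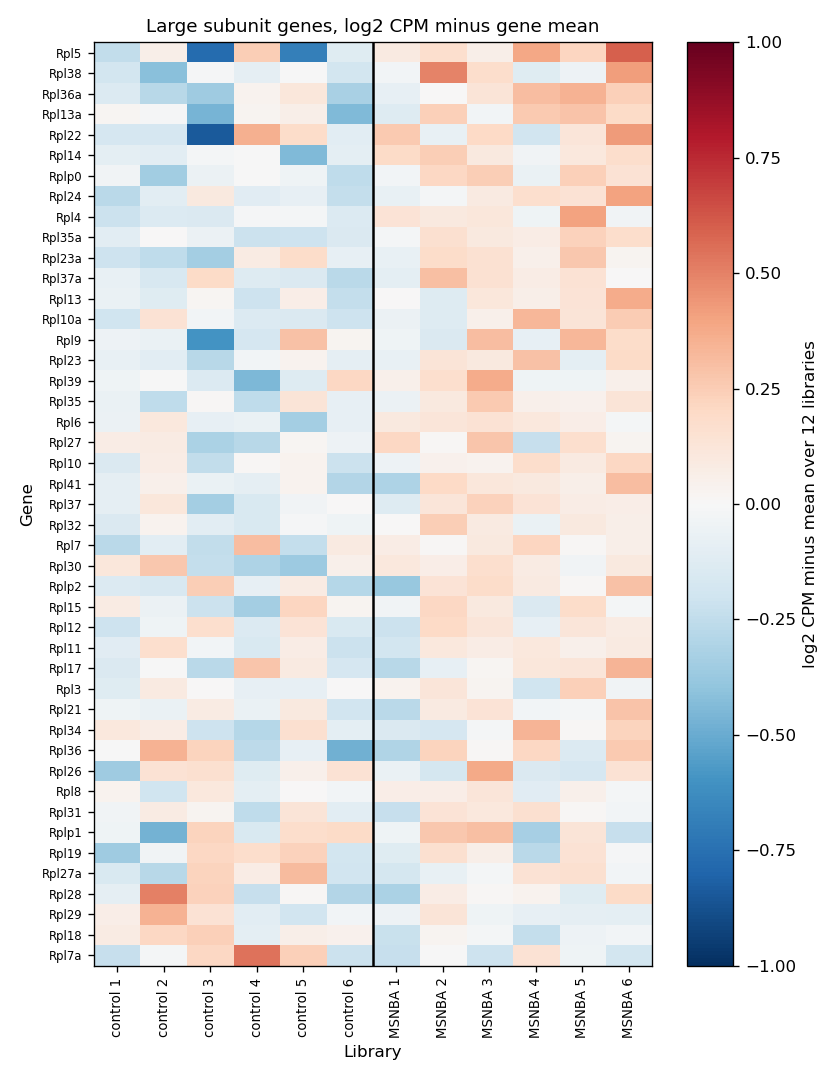
Log2 CPM of 45 of the 46 tested large subunit genes (rows, sorted by log2 fold change) in 12 libraries (columns), each minus the gene's mean over the 12; red is above and blue below that mean. Blue among controls in the upper rows follows from the sort. MSNBA 1 has more blue cells than the other MSNBA libraries, being the lowest of its group for 21 of the 46 genes.

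Across libraries, MSNBA 1 was the lowest MSNBA library for 21 of 46 members and the highest for 0. Among controls, control 3 was lowest for 11 members and highest for 9, and controls 1 and 6 were each lowest for 9 and highest for 0 and 1. Once each library was scaled to its own large subunit sum, the profile over the 46 members was much alike in all libraries, with Pearson correlations on the log2 scale from 0.94 to 0.99 over 66 pairs of libraries. These are across genes that share the same spread of levels and are not independent replicates, and they are given as a description.

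Levels differed widely between members. Per kilobase of transcript (median length of the GENCODE basic coding transcripts), Rpl41, which encodes the shortest of these proteins, stood highest in controls at 23184 ± 1935 CPM per kilobase (SD, n = 6). Rpl28 followed at 8615 ± 1887 and Rplp2 stood at 7168 ± 976, which differed by less than the SD of Rpl28. The median member stood at 1896 CPM per kilobase, and Rpl5, Rpl26 and Rpl22 at 383 ± 104, 349 ± 46.4 and 336 ± 87.5 were the lowest. If the counts are of single molecules, as the table's name hints, division by length is not needed, and Rpl41 at 12206 and Rpl28 at 8089 CPM were still the highest. Rpl41 alone held 13.0% of all large subunit counts and the 5 most counted members 32.9%. It measured from 10449 to 13285 CPM in controls (median 12158) and from 10343 to 15902 CPM in MSNBA (median 13781), with 5 of 6 MSNBA libraries above all controls and MSNBA 1 below them all, and a log2 fold change of 0.16 with SE 0.091 (edgeR, adjusted p = 0.589, unadjusted p = 0.0823). Without Rpl41 the share of counts was 6.41 ± 0.26% in controls and 6.95 ± 0.322% in MSNBA. Over the 46 members the Spearman correlation of the log2 fold change was -0.36 with the control level and 0.058 with transcript length, as a description over genes whose levels share the same libraries.

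The coefficient of variation between controls had a median of 11.5% over the members, and counting error alone would give a median of 9.78% at these depths. In MSNBA the values were 10.8% and 6.50%. The widest member in controls was Rpl5 at 27.1%, with 14% from counting, and the narrowest was Rpl32 at 5.36%. The spread between controls was above counting error for 31 of 46 members.

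The 4 members that failed the filter were the paralogues Rpl3l, Rpl10l, Rpl39l and Rpl32l. Rpl3l, a muscle form of Rpl3, had 2 counts in all controls together and 3 in MSNBA. Rpl10l had 4 and 5 counts, Rpl32l 0 and 1, and Rpl39l, a testis and tumour form of Rpl39, 11 and 18. A floor of 3 counts over a group is 4.41 CPM in controls and 1.88 CPM in MSNBA. Rpl39l and Rpl10l lay above these floors in both groups, and no comparison is made for these 4 genes. Of close paralogues outside the rule, the log2 fold change for Rpl36al was 0.27 (SE 0.13) and for Rpl7l1 0.35 (SE 0.22), and neither passed. Rpl22l1, the paralogue of Rpl22, had 38 and 106 counts and was not tested. Many of these genes have processed pseudogenes of near-identical sequence, so each count depends on how shared reads were assigned. The table held 5 symbols of Rpl pseudogenes, 4 with counts, and their counts came to 2.75 ± 0.202% of the member counts in controls and 2.66 ± 0.195% in MSNBA. Most belonged to Rplp2-ps1, Rpl34-ps1 and Rpl31-ps12, named for Rplp2, Rpl34 and Rpl31. Rplp2-ps1 had 732 counts in controls and 1742 in MSNBA, where Rplp2 had 5830 over both groups. Rpl34-ps1 had 455 and 1047, against 3767 for Rpl34, and Rpl31-ps12 had 201 and 549, against 3270 for Rpl31. For these genes the pseudogene is thus a far larger part than the total shows, and their values depend more on how shared reads were assigned.

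Small subunit genes gave a similar picture, with a median log2 fold change of 0.17 over 30 tested genes and 0 past the threshold. At p under 0.05 before adjustment 9 (30%) were higher and 0 lower (background 4.17% and 4.78%). Rps23 and Rps12 had 0.42 (SE 0.13, adjusted p = 0.221) and 0.34 (SE 0.12, adjusted p = 0.314) by edgeR. Other genes with TOP messages, mostly translation factors, had a median of 0.090 over 19 tested genes. Of these, 15 lay above 0 (background 48.5%) and 3 (15.8%) were higher at an unadjusted p under 0.05 (background 4.17%). Among them Eif4b, a cofactor of the initiation helicase, measured 420.5 ± 109 and 566 ± 15 CPM, with an adjusted p of 0.377 by edgeR. All 6 of its MSNBA libraries lay above all controls, as for 0.23% of all 2614 tested genes. Naca, a subunit of the complex that meets the chain at the tunnel mouth, had a log2 fold change of 0.51 (SE 0.17). The nucleolar and cytoplasmic assembly factors of the large subunit had a median of -0.15 over the 15 of 50 that were tested. Of these, 5 lay above 0 and 10 below, 0 were at an unadjusted p under 0.05, and the median SE was 0.24. Over all tested genes the quartiles were -0.18 and 0.15, and 48.5% lay above 0. Ddx27, a helicase of large subunit maturation, had -0.47 (SE 0.26) and Nhp2, of the pseudouridylation particles, 0.30 (SE 0.18). Of 13 genes of mTORC1 and LARP1 control 4 were tested, with 1 lower at an unadjusted p under 0.05 (background 4.78%). It was Tsc2, an inhibitor of mTORC1, at -0.61 (SE 0.25, adjusted p = 0.401 by edgeR). Eif4ebp1 had 0.33 (SE 0.18) and Larp1 -0.26 (SE 0.21). Of 19 p53 response genes 4 were tested, with 1 higher at an unadjusted p under 0.05 (background 4.17%). It was Gadd45a at 0.59 (SE 0.27, adjusted p = 0.494 by edgeR), and Trp53 itself had -0.34 (SE 0.29). None of these genes passed the threshold. Whether any list differs from the large subunit genes was not tested.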

How the data were processed

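PolyA RNA of 12 libraries was measured by sequencing of tagmented libraries. The authors deposited raw counts per gene symbol, with not scaled. Alignment with BWA 0.7.4.4 and the build mm10 are given in the submitters' processing notes. The table's name points to unique alignments, RefSeq genes and molecular identifiers. Counting program and strand: not given in the sources used here. Groups came from the sample titles, and columns were matched by library name.

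Members and lists were chosen with earlier results of these data known. Genes were filtered by filterByExpr, scaled by TMM factors and tested with edgeR 4.0.16 (R 4.3.3; robust quasi-likelihood, intercept and treatment), two-sided, with Benjamini-Hochberg adjustment over 2614 genes and a threshold of 0.05. The standard error is the size of the log2 fold change over the square root of F. The test was tried on simulated data. Members named one by one were those of the 5S particle and stalk, Rpl10 and Rpl3, then the 8 higher and 4 lower with the smallest unadjusted p; some single genes are not reported here, though they stay in the fits and counts. Rpl41, Rpl22 and the other members given with values were named after these were seen. In comparison lists, the 2 genes with the smallest p were named; Trp53 is the second of its list, and Larp1 was added. Positions matched for all 50 members in RefSeq. Alternatives were RLE factors, library size alone, TMM without ribosomal protein genes, no low-count filter, 20 counts in 6 libraries, DESeq2 1.42.0, limma-voom (limma 3.58.1), a replicate block, log2 depth as covariate, each library left out and the 4 middle columns left out. Same-numbered libraries correlated above 0.1 in 3 of 6 pairs, so numbers were not taken as pairs.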

Additional observations from a re-analysis of the deposited data

Results flagged for a closer look

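Of 46 groups of 6 libraries examined for a lone library (the named members, the summed shares and the ratio of the subunits), 5 held one, where chance gives 2.3. In each, the gap to the nearest library, over the group's range, exceeded Dixon's critical value at 95%. Rpl11 measured 2994 CPM in MSNBA 1, and the next MSNBA library had 3525. Rpl14 measured 737 CPM in control 5, with the next control at 926, and that low control has 34 counts. Rpl4 measured 957 CPM in MSNBA 5, above the next at 796. Rpl37a measured 3057 CPM in control 3, above the next at 2539. Rpl29 measured 1999.8 CPM in MSNBA 2, above the next at 1777. The libraries differ from gene to gene.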

How the results depend on the processing

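With each library left out in turn, the median log2 fold change of the members ran from 0.12 to 0.17, the members higher at an unadjusted p under 0.05 from 5 (without control 6) to 12 (without MSNBA 1), those lower from 0 to 1 (without control 4), and the summed level in MSNBA over control from 1.08 to 1.11. Members called stayed at 0 in each of these runs. Genes called over the whole table ran from 0 to 1 higher (1 without control 2) and from 0 to 5 lower (5 without control 1, 4 without MSNBA 4). Without the low-count filter 8 genes were called higher and 7 lower, 1 member (Rpl5) was called, 27 members were higher at an unadjusted p under 0.05, and the median of the members was 0.30, with that of the 2614 genes at 0.14. DESeq2 called 2 genes higher and 4 lower, with 15 members higher at an unadjusted p under 0.05. With log2 depth in the model 0 genes were called lower and 15 members were higher at that level. TMM without ribosomal protein genes, the stricter filter and limma-voom each called 1 gene lower. The replicate block, which the numbers do not justify (correlations from -0.23 to 0.48 over 1672 genes), gave 3 genes lower, 0 members called, 8 members higher at an unadjusted p under 0.05 and a median of 0.15. Without the 4 libraries of the middle columns 3 genes were called higher and 0 lower, 4 members were higher at an unadjusted p under 0.05, and Rplp1 was -0.19. Signs turned for Rplp1 also with log2 depth in the model (-0.025) and without control 2 (-0.041), MSNBA 2 (-0.014) and MSNBA 3 (-0.018). They turned for Rpl7a with depth (0.029) and for Rpl29 without the filter (0.063). With each library left out, Rplp1 ran from -0.041 to 0.090. The cause was not tested. Of 418 values of the named members under alternatives, 410 kept their direction and their side of the threshold. Single members had a standard error of typically 0.11, and counting error alone gives a median coefficient of variation of 9.78% in controls and 6.50% in MSNBA.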
